A study of Mus musculus with 8 samples.

Results

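The antiviral genes Ifit1, Oasl2, Oas1a, Oas2, Oas3 and Mx2 were followed in mouse keratinocytes with and without Nfkbiz. The 6 genes were chosen by name: each is the single symbol that the platform annotation gives for 1 probe set, so they correspond to 6 of 11373 probe sets and to 6 of the 9294 genes tested. Expression was measured on 8 one-colour arrays in 2 groups, Nfkbiz KO keratinocytes and wildtype keratinocytes, both of strain C57BL/6, with 4 biological replicates per group. Nfkbiz encodes IkBz, a nuclear protein that modulates transcription of a subset of NF-kB target genes. Both groups carried the v-rasHa oncogene, a viral, activated form of Hras, for 3 days before RNA was taken, and both were grown in regular medium. No cells without v-rasHa, no cells given interferon and no other time point were compared, so every value below is the level of transduced cultures at 3 days. How many animals stood behind each culture and how Nfkbiz was deleted are not stated in the labels.

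Interferons are secreted when a cell senses viral nucleic acid, and they signal through their receptors, JAK kinases, STAT proteins and the partner IRF9 to a promoter element called the ISRE. Genes switched on in this way include the IFIT proteins, which bind foreign RNA and block its translation, the oligoadenylate synthetases (OAS), which make a small messenger that activates the nuclease RNase L, and the Mx proteins, dynamin-like GTPases that trap viral components. Keratinocytes respond to interferons, and these genes are common readouts of that response in skin.

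Ifit1 lies on mouse chromosome 19 beside the other Ifit genes, Oas1a, Oas2 and Oas3 lie together in a cluster on chromosome 5, Oasl2 lies on chromosome 5 outside that cluster, and Mx2 lies on chromosome 16 near Mx1. Chromosome 16 also carries Nfkbiz. The reference annotation of the C57BL/6J genome lists Mx2 as a transcribed pseudogene and the other 5 genes as protein coding. Of the 6 genes, 4 had a promoter window in the RefSeq table of the build GRCm38.p6. The 150 bases before the annotated start of these genes are shown because the ISRE is the element through which the family is classically induced, and because the set holds genes on both sides of the comparison. Sequences run 5′ to 3′ on the strand of the gene, and capitals mark matches to the core of the ISRE, written TTTCNNTTTC and searched on both strands.
Ifit1, chr19:34640739-34640888, plus strand: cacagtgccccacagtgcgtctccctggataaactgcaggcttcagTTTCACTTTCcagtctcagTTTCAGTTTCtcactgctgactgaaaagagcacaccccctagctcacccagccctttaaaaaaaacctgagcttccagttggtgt
Oasl2, chr5:114896784-114896933, plus strand: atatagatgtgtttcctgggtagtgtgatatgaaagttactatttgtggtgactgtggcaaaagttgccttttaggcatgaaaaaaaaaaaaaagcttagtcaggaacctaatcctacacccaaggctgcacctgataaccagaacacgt
Oas1a, chr5:120907526-120907675, minus strand: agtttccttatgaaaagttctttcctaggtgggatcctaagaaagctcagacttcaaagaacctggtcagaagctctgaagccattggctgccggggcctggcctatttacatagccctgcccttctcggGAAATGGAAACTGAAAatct
Oas3, chr5:120777660-120777809, minus strand: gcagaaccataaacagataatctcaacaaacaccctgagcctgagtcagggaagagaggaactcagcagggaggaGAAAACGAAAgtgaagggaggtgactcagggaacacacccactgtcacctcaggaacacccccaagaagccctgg

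Ifit1 and Oasl2 were more than 2-fold higher in Nfkbiz KO keratinocytes, and the other 4 genes showed no shift that passed the test. The test was limma's moderated test on log2 signals, fitted over all 9294 genes, and rises and falls are named as such where the Benjamini-Hochberg adjusted p was below 0.05. Of all genes, 4.47% rose and 4.43% fell by this rule. Among the 6 genes 2 rose, none fell and 4 did not pass in limma. The same 2 were the only ones with an unadjusted p below 0.05. That rule is looser, as an unadjusted p of 0.0487 in limma corresponded to an adjusted p of 0.237. More of all genes pass it than the shares above, and the exact share is not given here. The median log2 fold change, Nfkbiz KO minus wildtype, was 0.04 over the 6 genes and -0.012 over all genes.

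Ifit1, whose protein recognises RNA with an unmethylated cap, had log2 signals of 6.60, 6.60, 6.57 and 6.71 in the Nfkbiz KO arrays, against 5.39, 4.87, 5.62 and 5.54 in the wildtype arrays. Every Nfkbiz KO array was higher than every wildtype array, with a gap of 0.95 between the lowest Nfkbiz KO value and the highest wildtype value. The means were 6.62 ± 0.06 in Nfkbiz KO and 5.35 ± 0.34 in wildtype cells (SD, n = 4 each). The log2 fold change was 1.27 ± 0.14 (SE; limma adjusted p = 0.000123), a 2.41-fold difference with a 95% interval of 1.96 to 2.96. The Nfkbiz KO arrays lay within 0.14 of each other and the wildtype arrays within 0.75, and wildtype replicate 2, at 4.87, was the lowest array. Counting Ifit1 itself, 10 of the 9294 genes had a log2 fold change at least as high.

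Oasl2 encodes an oligoadenylate synthetase-like protein with ubiquitin-like domains. Its log2 signals were 4.19, 4.33, 4.60 and 4.65 in the Nfkbiz KO arrays, against 3.46, 3.12, 3.14 and 3.30 in the wildtype arrays. The groups did not overlap, and the gap between them was 0.73. The means were 4.44 ± 0.22 in Nfkbiz KO and 3.25 ± 0.16 in wildtype cells (SD, n = 4 each), a log2 fold change of 1.19 ± 0.11 (SE; limma adjusted p = 4.52e-05) or 2.28-fold with a 95% interval of 1.93 to 2.70. These signals were dim. In 2 of 4 Nfkbiz KO arrays and 4 of 4 wildtype arrays Oasl2 lay below the median of the array, and in 3 of 4 wildtype arrays it lay below the lower quartile, which was 3.33 to 3.39. No detection calls were used, so the wildtype signal could not be told from background and the fold is one of signals. Ifit1 and Oasl2 were the 2 of the 6 genes whose groups did not overlap, where 7.91% of all genes were separated in that direction.

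**Figure D1:**
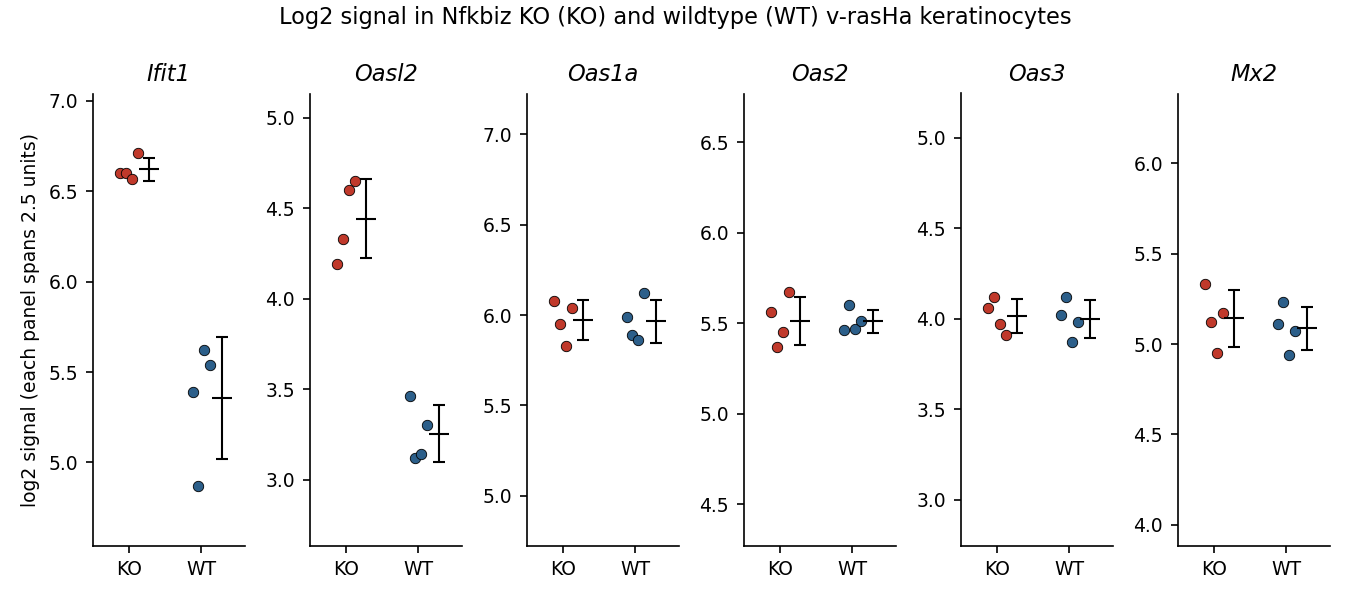
Log2 signal (vertical axis, each panel 2.5 units tall, so that heights compare as changes and not as levels between genes) of the 6 genes in the 4 Nfkbiz KO arrays (KO, red) and the 4 wildtype arrays (WT, blue), 1 point per array, with the mean and SD to the right of the points. Ifit1 and Oasl2 separate the groups, with means of 6.62 against 5.35 and 4.44 against 3.25, and the points of Oas1a, Oas2, Oas3 and Mx2 overlap.

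The 3 classical synthetases did not pass the test, and their groups overlapped. Oas1a, one of several mouse Oas1 genes and an active synthetase, had log2 signals of 6.08, 5.95, 5.83 and 6.04 in the Nfkbiz KO arrays, against 5.99, 5.89, 5.86 and 6.12 in the wildtype arrays. The lowest array was an Nfkbiz KO array and the highest a wildtype array, and the log2 fold change was 0.01 ± 0.07 (SE; limma adjusted p = 0.963). Its 95% interval, -0.15 to 0.18 on the log2 scale, corresponds to 0.90-fold to 1.13-fold.

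Oas2, the medium-sized synthetase, had log2 signals of 5.56, 5.37, 5.45 and 5.67 in the Nfkbiz KO arrays, against 5.46, 5.60, 5.47 and 5.51 in the wildtype arrays. Nfkbiz KO arrays were both the lowest and the highest of the 8. The log2 fold change was 0.00 ± 0.07 (SE; limma adjusted p = 0.989), and the 95% interval of the fold ran from 0.901 to 1.11. Oas3, the largest of the synthetases, had log2 signals of 4.06, 4.12, 3.97 and 3.91 in the Nfkbiz KO arrays, against 4.02, 4.12, 3.87 and 3.98 in the wildtype arrays. The groups overlapped, with a log2 fold change of 0.02 ± 0.07 (SE; limma adjusted p = 0.934) and a 95% interval of the fold from 0.912 to 1.12. All 8 Oas3 values lay below the array medians (4.49 to 4.57), and none lay below a lower quartile.

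Mx2, named after a cytoplasmic antiviral GTPase, had log2 signals of 5.33, 5.12, 4.95 and 5.17 in the Nfkbiz KO arrays, against 5.11, 5.23, 4.94 and 5.07 in the wildtype arrays. The groups overlapped, and the log2 fold change was 0.06 ± 0.08 (SE; limma adjusted p = 0.789), with a 95% interval of the fold from 0.913 to 1.18. Over Oas1a, Oas2, Oas3 and Mx2, no 95% interval reached beyond -0.15 or 0.24 on the log2 scale. A rise in signal of the size seen for Ifit1 or Oasl2 lies outside the interval of each of the 4. No detection calls were used, so these intervals bound signals and may not bound the transcripts, above all for the dim Oas3. None of these 4 had an unadjusted p below 0.05 in limma.

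Whether the genes changed by unequal amounts was asked within arrays, by taking the difference between the log2 signals of 2 genes on each array and comparing that difference between the groups for all 15 pairs of the 6 genes. The 8 pairs that set Ifit1 or Oasl2 against Oas1a, Oas2, Oas3 or Mx2 separated the groups completely. Ifit1 changed by 1.26 more than Oas1a and Oas2, by 1.25 more than Oas3 and by 1.21 more than Mx2, all on the log2 scale. Oasl2 changed by 1.18 more than Oas1a, 1.19 more than Oas2, 1.17 more than Oas3 and 1.14 more than Mx2, in signals, since its wildtype values could not be told from background. Each of these 8 pairs had p = 0.0286 in an exact two-sided permutation test, the smallest p that 4 arrays against 4 allow. The adjusted p over the 15 pairs was 0.0536 (Benjamini-Hochberg), the lowest that 8 fully separated pairs of 15 can reach in this design, so it does not bear on the size of the differences. The change of Ifit1 exceeded that of Oasl2 by 0.08 (exact permutation p = 0.686), and the 6 pairs among Oas1a, Oas2, Oas3 and Mx2 differed by at most 0.05 in either direction, with exact p of 0.571 or higher.

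Relatives of the 6 genes were measured on the same arrays. Beside Ifit1, 3 other genes of the Ifit cluster were measured. Ifit3, whose human counterpart binds IFIT1 in a complex, had log2 signals of 6.25, 6.40, 6.17 and 6.25 in the Nfkbiz KO arrays, against 5.57, 5.74, 5.31 and 5.12 in the wildtype arrays, without overlap. It rose by 0.83 ± 0.12 (SE; limma adjusted p = 0.000866). Ifit2 rose by 0.29 ± 0.08 (SE; limma adjusted p = 0.0402), and its groups were also separate, at 6.22 ± 0.09 in Nfkbiz KO and 5.93 ± 0.14 in wildtype cells (SD, n = 4 each). Ifit1bl1, at 0.13 on the log2 scale, did not pass (limma adjusted p = 0.57).

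Of the Oas1, Oas2 and Oas3 cluster 8 genes were measured, and in limma none rose or fell, at an adjusted p below 0.05 or at an unadjusted one. The log2 fold changes ran from -0.14 for Oas1f to 0.09 for Oas1c, and no 95% interval reached beyond -0.32 or 0.33. Related Oas1 genes can share probe sequence, so the values of single Oas1 genes are uncertain. Some were also dim, with means in Nfkbiz KO and wildtype cells of 3.72 and 3.69 for Oas1h and 4.37 and 4.28 for Oas1c. Without detection calls, such signals could not be told from background. Oasl1, the other mouse Oasl gene, had 5.84 ± 0.09 in Nfkbiz KO and 5.62 ± 0.16 in wildtype cells (SD, n = 4 each), a log2 fold change of 0.22 that did not pass (limma adjusted p = 0.138, unadjusted 0.0201). Mx1, listed in the reference as a transcribed pseudogene like Mx2, had 4.46 ± 0.05 in Nfkbiz KO and 4.18 ± 0.19 in wildtype cells, and its log2 fold change of 0.28 did not pass (SD, n = 4 each; limma adjusted p = 0.072, unadjusted 0.00745).

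**Figure D2:**
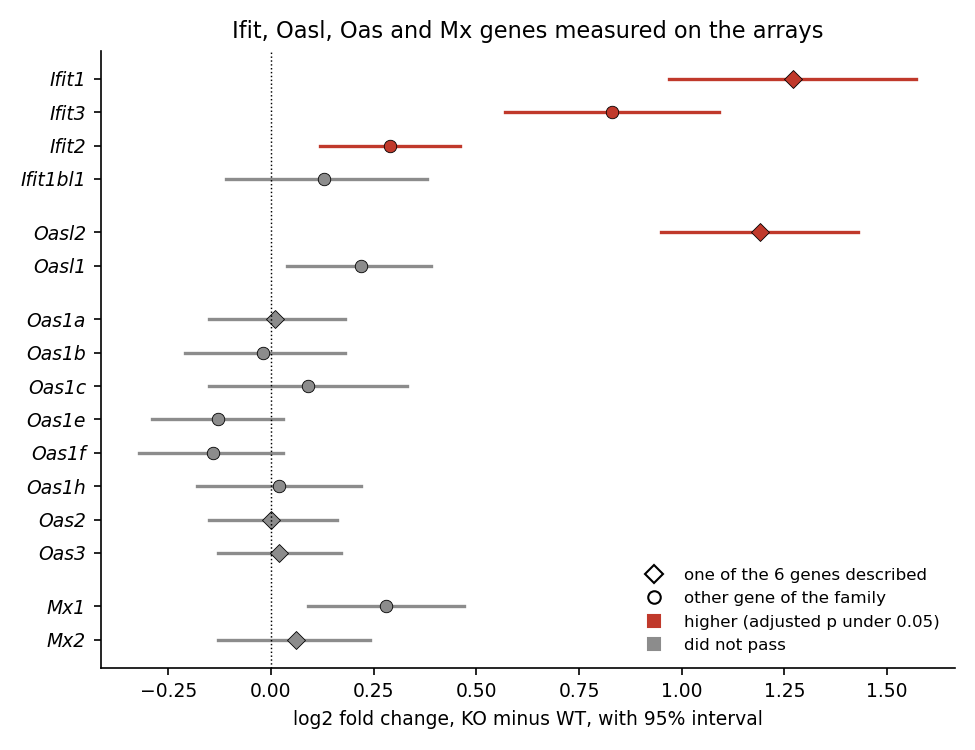
Log2 fold change, Nfkbiz KO minus wildtype (horizontal axis), with its 95% interval for every measured Ifit, Oasl, Oas and Mx gene; diamonds are the 6 genes described and circles their relatives, and red marks genes that rose at an adjusted p below 0.05. Ifit1, Ifit3, Ifit2 and Oasl2 rose, Oasl1 (0.22) and Mx1 (0.28) did not pass but have intervals to the right of 0, and the 8 genes from Oas1a to Oas3 lie between -0.14 and 0.09.

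The ISRE core was found in the promoter windows of genes that rose and of genes that did not. The search covered the whole RefSeq window, 250 bases before to 50 after the start, of which 3.44% of 32851 windows held a match. Ifit1 held 2 matches on the gene's strand, beginning 104 and 85 bases before the start. Oas1a held 2 overlapping matches on the opposite strand, beginning 20 and 14 bases before the start, and Oas3 held 1 on the opposite strand, 75 bases before it. Oasl2, which rose, held none of these letters in its window. The NF-kB consensus site, present in 4.51% of windows, was in none of the 4 windows. Matches describe letters only, and binding was not measured here.

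**Figure D3:**
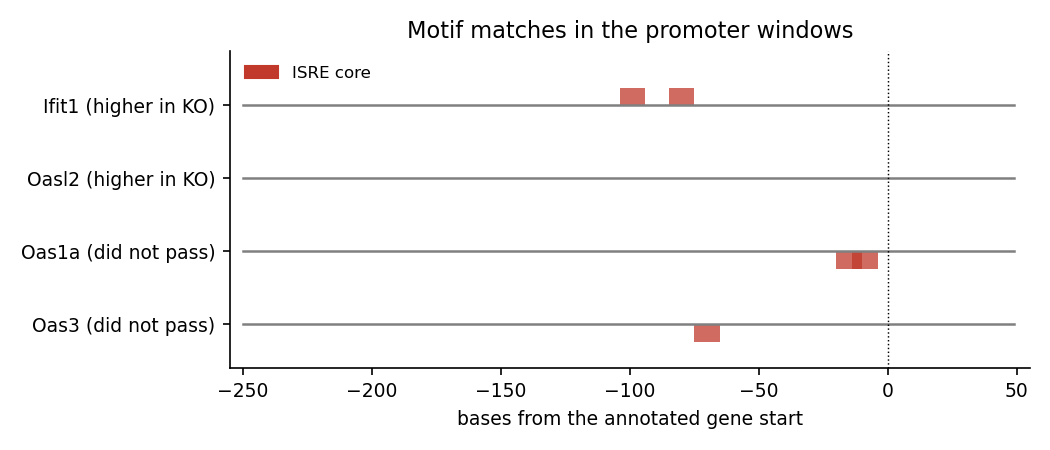
Matches to the ISRE core (red) by distance in bases from the annotated start (dotted line) in the promoter windows of Ifit1, Oasl2, Oas1a and Oas3; boxes above a line are on the gene's strand, and boxes below it are on the opposite strand. Ifit1 holds 2 ISRE cores, Oas1a 2 overlapping ones and Oas3 1, and Oasl2 holds none.

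The wider antiviral pathway was described with 7 lists ordered by role, of which 58 of 132 symbols were measured, the 6 genes included. The lists were chosen with earlier results of these arrays known and are a description. Of these 58 genes, 20 rose and 2 fell, with a median log2 fold change of 0.10, and without the 6 genes 18 of 52 rose. The share that rose was 34.5% of the 58, against 4.47% of all genes. The counts below at an unadjusted p below 0.05 have no such share of all genes beside them.

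Interferon transcripts themselves did not pass. The 5 measured ligand genes, Ifna1, Ifna2, Ifna4, Ifnb1 and Ifng, had log2 fold changes from -0.15 to 0.04, with a lowest adjusted p of 0.328 in limma and none with an unadjusted p below 0.05. Ifnb1 was dim, with 3.44 ± 0.09 in Nfkbiz KO and 3.40 ± 0.13 in wildtype cells (SD, n = 4 each), close to the lower quartile of the arrays. Ifng, with means of 2.92 in Nfkbiz KO and 3.08 in wildtype cells, lay below the lower quartile in every array. Ifna2 and Ifna4 lay below the median in every array. No detection calls were used, so the signals of these dim genes could not be told from background. Among the receptors, Ifnlr1, the specific chain of the receptor for type III interferon, rose by 0.27 ± 0.06 (SE; limma adjusted p = 0.027), and Ifngr1 and Il10rb did not pass. Of the 6 sensors and adaptors, 1 rose and 1 fell in limma, with a median log2 fold change of -0.14. At an unadjusted p below 0.05, 1 was higher and 3 were lower. Ifih1, the gene of the RNA sensor MDA5, rose (limma adjusted p = 5.48e-05). Its signal was 8.43 ± 0.07 in Nfkbiz KO cells, against 7.77 ± 0.10 in wildtype cells (SD, n = 4 each). The kinase gene Ikbke fell by 0.25 ± 0.06 (SE; limma adjusted p = 0.016), and the adaptor gene Myd88 did not pass at -0.21 on the log2 scale (limma adjusted p = 0.0563).

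Of 7 measured genes of JAK, STAT and IRF signalling, 4 rose and none fell in limma, and at an unadjusted p below 0.05 4 were higher and 1 was lower. Usp18, which removes the ubiquitin-like protein ISG15 from its targets and dampens interferon receptor signalling, had 7.97 ± 0.14 in Nfkbiz KO and 7.02 ± 0.10 in wildtype cells (SD, n = 4 each), a log2 fold change of 0.95 ± 0.08 (SE). Irf9, the DNA-binding partner of the STAT proteins at the ISRE, rose by 0.49 ± 0.08, Irf1 by 0.48 ± 0.06 and Irf7, an amplifier of interferon production, by 0.44 ± 0.06. Socs1, an inhibitor of JAK kinases, had a log2 fold change of -0.17 and did not pass (limma adjusted p = 0.139).

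The list of Mx genes and other antiviral effectors was mixed. Of its 12 measured genes, Mx1 and Mx2 included, 2 rose, 1 fell and 9 did not pass in limma. At an unadjusted p below 0.05, 5 were higher and 2 were lower. Isg20, the gene of an RNA exonuclease, rose by 0.72 ± 0.06 (SE) and Bst2, whose protein tetherin holds budding virus at the cell surface, by 0.43 ± 0.06. Ifitm1, of a family of membrane proteins that block viral entry, fell by 0.42 ± 0.08 (limma adjusted p = 0.00627), to 4.30 ± 0.12 in Nfkbiz KO cells, against 4.72 ± 0.13 in wildtype cells (SD, n = 4 each). Among 11 genes of interferon-inducible GTPases, chemokines and antigen processing, 8 rose and none fell in limma, and 10 were higher and none lower at an unadjusted p below 0.05. The 4 largest log2 fold changes of that list were 2.62 in Ubd, 1.97 in Ccl5, 1.72 in Cxcl10 and 0.89 in Gbp3, several of which also respond to other signals than interferon. Psmb9 had the largest log2 fold change of the list that did not pass, at 0.25 (limma adjusted p = 0.064).

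**Figure D4:**
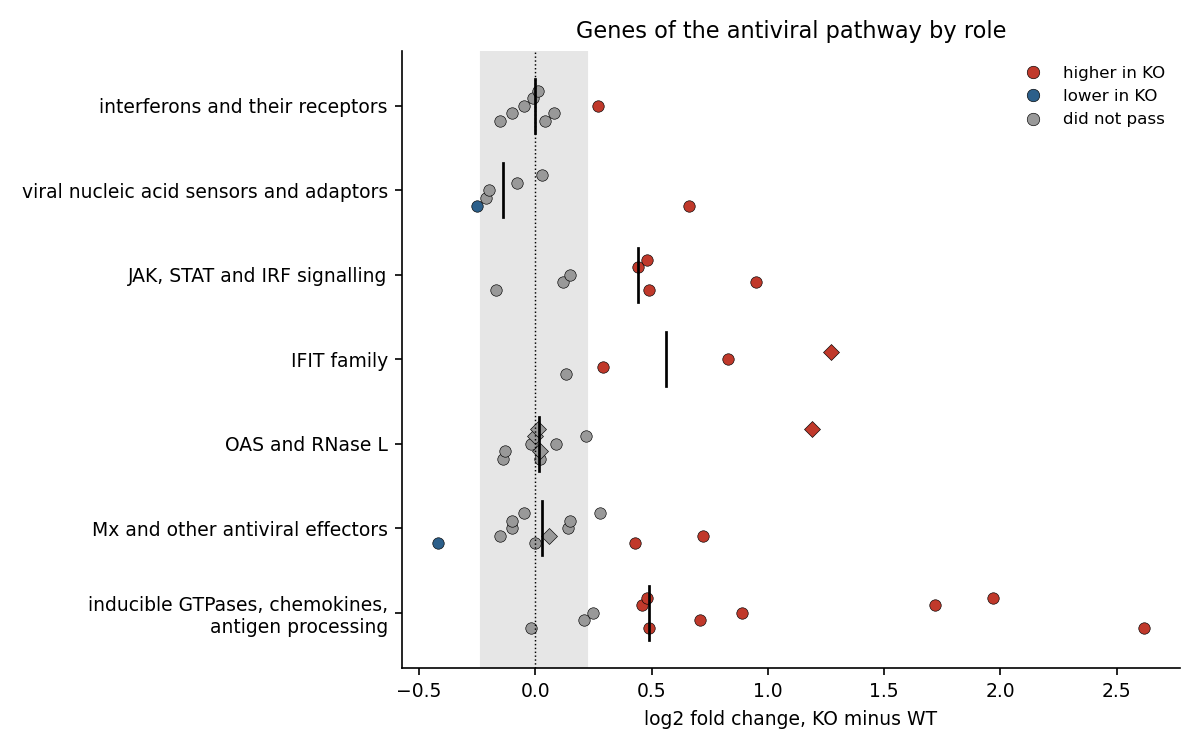
Log2 fold change, Nfkbiz KO minus wildtype (horizontal axis), of the 58 measured pathway genes in rows by role; red points rose, blue points fell, grey points did not pass, diamonds are the 6 genes described, black ticks are list medians, and the shaded band runs from the 5th to the 95th percentile of all genes (-0.23 to 0.22). The OAS list is centred near 0 (median 0.01) with Oasl2 apart at 1.19, and the IFIT list has a median of 0.56.

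Genes with the most similar pattern were found by the root mean square difference of mean-centred log2 signals over the 8 arrays. A gene picked this way must change much as its partner does, so the changes given below follow from the choice. For Ifit1 these were Pmp22, Ctla2a and Calcb, at distances of 0.204, 0.211 and 0.224. For Oasl2 they were Ctla2a, Pmp22 and Efhd1, at 0.145, 0.164 and 0.164, and these 4 genes rose by 1.16 to 1.24 on the log2 scale. For Oas1a, Oas2, Oas3 and Mx2, whose values hardly varied, the nearest genes lay at distances of 0.0292 to 0.0551. They were Cnga4, Lrp11 and Procr for Oas1a, Timd4, Capn11 and Fut4-ps1 for Oas2, 8430431K14Rik, Ifi27l2b and Crisp2 for Oas3, and Hhatl, Asic2 and Atp6v1g2 for Mx2, none of which passed in limma.

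Keratinocyte identity and other cells were checked in the same arrays. Counts at an unadjusted p below 0.05 are given without a share of all genes and are not read as shifts of a cell type. Krt5, the basal keratin, had 13.29 ± 0.06 in Nfkbiz KO and 13.42 ± 0.03 in wildtype cells (SD, n = 4 each), and of 8 keratinocyte markers 1 fell and none rose in limma (2 lower and 1 higher at an unadjusted p below 0.05). Of 11 leukocyte markers, 1 fell and none rose in limma (4 lower and none higher at an unadjusted p below 0.05). The mean log2 signal of that list ran from 4.30 to 4.40 in Nfkbiz KO arrays and from 4.40 to 4.52 in wildtype arrays. Of 6 fibroblast markers 5 fell and 1 rose, with list means of 6.05 to 6.24 in Nfkbiz KO and 6.49 to 6.61 in wildtype arrays. Among 3 melanocyte markers 1 fell and all 3 were lower at an unadjusted p below 0.05, with list means of 9.28 to 9.57 in Nfkbiz KO and 9.63 to 9.72 in wildtype arrays. Of 5 endothelial markers none passed in limma, with 1 lower at an unadjusted p below 0.05. The part of these cells in the changes of Ifit1 and Oasl2 was not tested, and in bulk cultures fewer cells of a type and less RNA per cell cannot be told apart. Nfkbiz was not analysed here, so the knockout was not checked from these values.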

How the data were processed

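Biotin-labelled total RNA of the 8 cultures, purified by Trizol and column, was hybridised per the labels. The deposited table holds log2 signals of 11373 probe sets, read as log2 from their range of 1.57 to 13.9; how the authors summarised and normalized the signals is not given in the sources used here, nor is a genome build. The medians of the arrays were 4.49 to 4.57 and the correlation between arrays of a genotype was 0.997 to 0.998 across probe sets. Of the probe sets, 9374 had 1 gene symbol in the platform annotation, 479 several and 1520 none. The brightest single-symbol probe set stood for each of 9294 genes, 9201 of them matched by Entrez identifier to a gene table of GRCm38.p6, which was used for current names, biotype and gene order. Groups were compared in R 4.3.3 with limma 3.58.1 (lmFit, eBayes) without covariates, with Benjamini-Hochberg adjustment over all 9294 genes and a threshold of 0.05. Pairs of genes were compared by an exact permutation test over 70 regroupings. The number of arrays limits the precision, and the median SE of a log2 fold change was 0.0693. Tested on simulated data with 200 of 9294 genes changed, this fit recovered 93.0% of 1.5-fold and 99.7% of 2-fold changes, with 5.42% of calls false. The simulated noise was normal and independent between genes, with each gene's own SD, so these rates may not hold for the arrays themselves. Genes named beside the 6 are up to 4 called genes with the largest change and the largest uncalled one of each of the 7 pathway lists, the measured genes of the Ifit and Oas clusters, and the 3 genes nearest in pattern to each of the 6. Ifna1, Ifna2, Ifna4, Ifnb1, Ifngr1, Il10rb and Krt5 were chosen after their values were seen. The 6 genes and the lists were chosen with earlier results of these data known. A further planned motif is not reported here. Alternatives were a quantile normalization of the deposited values, subtracting each array's median, and dropping the lowest 25% of genes. Further ones were other ways to treat several probe sets of a gene, and eBayes with trend and robust. The replicate number as a block and leaving out each array were also run. The replicates are biological per the labels, and whether they came from separate animals is not stated. The limma p-values rest on the spread between these replicates, moderated over all genes.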

Additional observations from a re-analysis of the deposited data

Results flagged for a closer look

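Of 116 groups of 4 arrays examined, for the 6 genes and 52 other genes, 7 had 1 array far from the other 3, at a rate near the 1 in 20 that chance alone flags, and none of the 7 was a group of the 6 genes. Irf1 was lowest in Nfkbiz KO replicate 2, at 8.66 against 8.79 to 8.80 in the other Nfkbiz KO arrays. Usp18 was lowest in Nfkbiz KO replicate 3, at 7.75 against 8.02 to 8.05. Socs1 was lowest in wildtype replicate 3, at 4.90 against 5.10 to 5.14. Ifna4 was lowest in Nfkbiz KO replicate 3, at 3.75 against 4.00 to 4.04, and Ifna2 was highest in wildtype replicate 2, at 4.20 against 4.07 to 4.08. Among the genes near in pattern, Cnga4 and Atp6v1g2 were lowest in Nfkbiz KO replicate 3, at 2.89 and 4.24, against 3.14 to 3.18 and 4.47 to 4.51 in the other Nfkbiz KO arrays. The cause of these departures was not tested.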

How the results depend on the processing

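Under every alternative run, Ifit1 and Oasl2 kept their direction and stayed past the threshold, and Oas1a, Oas2, Oas3 and Mx2 stayed short of it. With 1 array left out, the log2 fold change ran from 1.11 to 1.36 for Ifit1 (limma adjusted p up to 0.000753) and from 1.12 to 1.27 for Oasl2 (up to 0.00047). In the same runs it ran from -0.02 to 0.06 for Oas1a, -0.05 to 0.05 for Oas2, -0.03 to 0.06 for Oas3 and -0.01 to 0.12 for Mx2, with no adjusted p below 0.484. Same-numbered arrays did not deviate together (correlations of -0.049 to 0.085), so the numbers were not taken as pairs; with the replicate block the adjusted p was 0.00049 for Ifit1 and 0.000617 for Oasl2, and 659 genes passed in place of 827. Over all alternatives the count of genes that passed lay between 598 and 1134, and that of pathway genes that rose between 18 and 23, against 20. With arrays centred on their median, 482 genes rose and 314 fell, against 415 and 412 as reported. Each of Ifit1 and Oasl2, tested alone by exact permutation, reached p = 0.0286, the smallest possible. For the differences between pairs of the 6 genes no alternative is informative, because the adjusted p cannot pass while 8 of 15 pairs are separated and centring cannot move a difference within an array. The dim wildtype signal of Oasl2 limits its fold.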

Other observations

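In the gene order of GRCm38.p6, Fam3b, the gene of a secreted cytokine-like protein, lies between Mx1 and Mx2 on chromosome 16, and it was lower in the knockout cells while neither neighbour passed the test. Fam3b was chosen after its values were seen. Its mean log2 signal was 3.60 ± 0.11 in Nfkbiz KO and 4.15 ± 0.13 in wildtype cells (SD, n = 4 each). The log2 fold change was -0.56 ± 0.08 (SE; limma adjusted p = 0.00072). The groups did not overlap, and the share of all genes separated in that direction is not given here. All 8 values lay below the array medians, and without detection calls such signals could not be told from background.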
